A study of Mus musculus with 2 samples.

Results

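In the mouse gastrocnemius, a large calf muscle, 10 genes of mitochondrial fatty acid oxidation and uncoupling were examined by RNA-seq: Cpt1b, Cpt2, Acadvl, Acadl, Acadm, Hadha, Hadhb, Acaa2, Etfdh and Ucp3. They were picked by symbol from the 55536 annotated genes, and all 10 were measured in both libraries. The RNA came from adult females of 8 to 10 months from a cross of 5xFAD, a transgenic Alzheimer's disease model that carries mutated human transgenes, with CAST, a wild-derived inbred strain. Both libraries, numbered 1 and 2 as biological replicates, form 1 group, and no control genotype, tissue or treatment is among the labels, which also do not say in which cells the transgenes are active. Each library was made with a strand-keeping kit from 300 ng of total RNA, with ERCC spike-ins added. The labels give the replicates 1 shared donor identifier and separate tissue identifiers, so whether they are different animals is not settled and the spread between them may be technical. Means are therefore given with the SD over n = 2, ratios run library 1 over library 2 with an interval for counting error alone, and no p-value was computed.

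Beta-oxidation shortens fatty acids in the mitochondrial matrix and passes their electrons to the respiratory chain. Long-chain acyl groups first cross the inner membrane as carnitine esters, made by a CPT1 enzyme and turned back by CPT2. Each turn then runs through an acyl-CoA dehydrogenase fitted to the chain length, a hydratase, a second dehydrogenase and a thiolase, and electrons from the acyl-CoA dehydrogenases reach ubiquinone through the flavoproteins ETF and ETFDH. UCP3 is a carrier of the inner membrane found mainly in skeletal muscle and brown fat, and its gene is known to respond to fasting. Fast glycolytic fibres, which make up most of the mouse gastrocnemius, depend on this route less than slow oxidative fibres do.

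Depth was 35594289 expected counts in library 1 and 34541905 in library 2, and a gene at 0 counts could be present at up to 0.0843 and 0.0869 CPM (counts scaled to the library total). The tissue label was checked against its markers. All 8 muscle fibre genes were detected, at a summed 69141 and 79495 TPM. Of the 5 cardiac markers, Nppb stood at 0 in both libraries, Nppa, Tnni3 and Ryr2 were below TPM 1, and Myh6, the cardiac myosin close in sequence to Myh7, stood at 59.22 and 78.21 TPM (21.1 and 29.0 TPM in a second deposited quantification). Brown fat also expresses Ucp3, and of its 4 markers Elovl3 stood at 0 and Cidea at 0.13 and 0.26 TPM. Ucp1 had 1 count in library 1 and 0 in library 2, and Ppargc1a, which muscle also expresses, stood at 9.83 and 11.65 TPM. White fat markers were present at a summed 188 and 198 TPM, with Adipoq at 8.17 and 10.04 TPM. How much RNA of the 10 genes came from fat, vessels or other cells in the tissue was not tested. In bulk tissue, fewer cells of a type and less RNA per cell cannot be told apart.

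The 10 genes were moderately abundant and held a small share of the muscle's RNA. TPM, the length-corrected level as deposited, summed to 803 in library 1 and 842 in library 2 (823 ± 27.1). That was 0.205% and 0.189% of the TPM of all nuclear protein-coding genes (0.197 ± 0.0118%). Of all gene TPM it was 0.0809% and 0.0849%, the other order. 7SL RNA, which is in this total and not in the first, took 35.4% of TPM in library 1 and 27.0% in library 2. The highest of the 10 genes stood 7.39 times above the lowest in library 1 and 6.11 times in library 2. Hadhb ranked 350 among 9984 nuclear protein-coding genes of TPM 1 or more in library 1 and 352 among 10168 in library 2, and Cpt2, the lowest, ranked 2451 and 2148.

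By mean TPM the order was Hadhb, Acadm, Acadvl, Hadha, Cpt1b, Acadl, Acaa2, Etfdh, Ucp3 and Cpt2. Hadhb, Acaa2 and Cpt2 stood clear of both neighbours in this order. The ranges of Acadm, Acadvl and Hadha overlapped, as did those of Cpt1b and Acadl and those of Etfdh and Ucp3, so these were not separated. These values come from the deposited gene table, made from alignments and called the first quantifier here. The second quantifier, deposited beside it and made straight from the reads, also put Hadhb first and Etfdh, Ucp3 and Cpt2 last, but it placed Hadha second. First place for Hadhb depended on the transcripts read. In full-exon transcripts alone, defined in the caption below, mean TPM was 103 for Hadha, 102 for Hadhb and 101 for Acadvl. Their ranges overlapped. Hadhb, at 94.8 TPM, was below Hadha at 96.9 and Acadvl at 99.4 in library 1. It was highest in library 2, at 109 TPM against 108 and 104. Acaa2 and Cpt2 stayed clear of their neighbours by this measure.

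**Figure D1:**
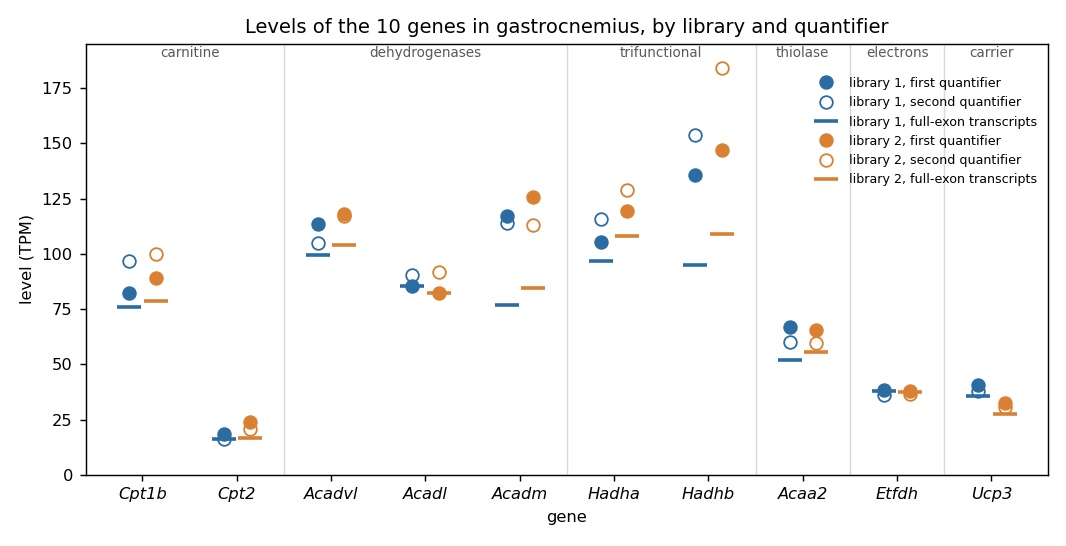
Level in TPM of each gene (x axis, in the order of their roles) in library 1 (blue, left) and library 2 (orange, right). Filled circles are gene TPM of the first quantifier, open circles those of the second, and bars the TPM of full-exon transcripts alone, those with at least 90% of the exons of the principal transcript. Hadhb is highest at 135.55 and 147.08 TPM, and its full-exon bars lie beside those of Hadha.

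At the carnitine step, the gene of the outer enzyme was several times more abundant than that of the inner one. Cpt1b, the muscle form of carnitine palmitoyltransferase 1 and the site where malonyl-CoA inhibits fatty acid entry (ENSMUSG00000078937.8, mm10 chr15:89416405-89425863, minus strand, 19 exons), had 6503.24 counts in library 1 and 5878 in library 2. Its level was 82.29 and 89.26 TPM (85.8 ± 4.93). Cpt1b held 96.1% and 96.4% of the summed TPM of the CPT1 genes. The liver form Cpt1a stood at 2.88 and 2.83 TPM and the brain form Cpt1c at 0.50 and 0.49 TPM, so the muscle form accounted for nearly all CPT1 RNA in both libraries. Slc25a20, the carrier that brings acylcarnitines through the inner membrane, stood at 27.32 and 26.64 TPM.

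Cpt2, which reforms acyl-CoA in the matrix (ENSMUSG00000028607.16, chr4:107903981-107923610, minus strand, 5 exons), had 1174 counts in library 1 and 1132 in library 2. Its TPM nevertheless differed more, at 18.35 and 24.09 (21.2 ± 4.06). The retained-intron model Cpt2-206, of 634 nucleotides, received 0 counts in library 1 and 54.52 in library 2. The shorter coding model Cpt2-203 stood at 1.78 and 3.64 TPM, and Cpt2-202 went the other way, at 0.44 and 0 TPM. The gene's effective length was 2104 nucleotides in library 1 and 1787 in library 2. The full-length coding transcript Cpt2-201 alone stood at 16.13 and 16.57 TPM, closer together than the gene values. In the second quantifier Cpt2-201 stood at 14.9 and 17 TPM, against 16.3 and 20.6 TPM for the gene. Cpt1b exceeded Cpt2 by 4.48 and 3.71 times in gene TPM, and by 4.70 and 4.75 times in full-exon transcripts.

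The genes of the acyl-CoA dehydrogenases for very long, long and medium chains were all more abundant than that for short chains. Acadvl, of the very long-chain enzyme on the inner membrane (ENSMUSG00000018574.14, chr11:70010183-70015411, minus strand, 20 exons), had 6440 counts in library 1 and 5809 in library 2, or 113.45 and 118.17 TPM. Acadm, of the medium-chain enzyme (ENSMUSG00000062908.12, chr3:153922357-153944632, minus strand, 12 exons), had 5010.45 and 4758.59 counts, or 117.09 and 125.89 TPM. Acadl, of the long-chain enzyme (ENSMUSG00000026003.5, chr1:66830839-66863277, minus strand, 11 exons), had 4721 and 3922 counts, or 85.50 and 82.13 TPM. In gene TPM Acadl was the lowest of the 3 in each library, with no overlap with the others.

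Of the summed TPM of these dehydrogenases and Acads, the short-chain member, Acadm held 34.4% in library 1 and 35.6% in library 2, Acadvl 33.3% and 33.4%, and Acadl 25.1% and 23.2%. Acads held 7.27% and 7.79%, at 24.78 and 27.56 TPM. The lead of Acadm depended on the transcripts read. In full-exon transcripts Acadm stood at 77.0 and 84.4 TPM, Acadvl at 99.4 and 104 and Acadl at 85.5 and 82.1. By this measure Acadvl was highest in both libraries. Acadm was lower than Acadl in library 1 and higher in library 2.

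Hadha and Hadhb code for the subunits of the trifunctional protein, an inner-membrane complex of equal numbers of both chains that carries the last 3 activities of the long-chain turn. The alpha subunit Hadha holds the hydratase and the hydroxyacyl-CoA dehydrogenase, and the beta subunit Hadhb the thiolase. Hadha (ENSMUSG00000025745.12, chr5:30118304-30155162, minus strand, 20 exons) had 8284 counts in library 1 and 7952 in library 2, or 105.39 and 119.41 TPM. Hadhb (ENSMUSG00000059447.13, chr5:30155248-30184593, plus strand, 16 exons) had 6126.13 and 6005.75 counts, or 135.55 and 147.08 TPM. Hadha was thus at 0.777 and 0.812 times the TPM of Hadhb.

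This ratio moved across 1 with the measure. In expected counts, where long transcripts weigh more, it was 1.35 in library 1 and 1.32 in library 2. In full-exon transcripts alone it was 1.02 and 0.991, from 96.9 and 108 TPM for Hadha against 94.8 and 109 TPM for Hadhb. The second quantifier gave 1.06 and 1.05 for full-exon transcripts. These full-exon ratios do not compare coding transcripts alone. In the first quantifier, the Hadha sum was mostly Hadha-201, annotated as non-coding, at 75.39 and 85.61 TPM. The coding Hadha-205 stood at 21.52 and 22.61 TPM, while the Hadhb sum held only transcripts with the complete coding sequence. A model of 507 nucleotides, Hadhb-208, which retains an intron near the 3' end of the gene, held 29.0% and 25.4% of Hadhb TPM on 7.94% and 6.66% of its counts. The 3 Hadhb transcripts with the complete coding sequence were split unlike in each library, Hadhb-201 taking 30.7% of gene TPM in library 1 and 47.6% in library 2, while their sum was 69.9% and 74.2%. The second quantifier gave Hadhb-201 next to no TPM in library 1 and 2.21 TPM in library 2, and put 25.7% and 26.9% on Hadhb-202, which the first quantifier left at 0, so the split among them was not settled.

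The 2 genes face away from each other, and 85 bases lie between their annotated starts. The stretch is shown because it is the only sequence between both genes' first exons. It is read on the plus strand, toward Hadhb, at mm10 chr5:30155163-30155247, and capitals mark the hexamer GGGCGG, a GC box bound by SP1-type factors.
Hadha-Hadhb interval: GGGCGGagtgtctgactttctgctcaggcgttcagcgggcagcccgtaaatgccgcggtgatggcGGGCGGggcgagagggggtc
It holds 2 copies of GGGCGG and was read from the RefSeq start-site table of the same assembly.

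Most Hadha RNA was assigned to an isoform annotated as non-coding. Hadha-201, a processed transcript of 2552 nucleotides and 20 exons, held 71.5% of Hadha TPM in library 1 and 71.7% in library 2 (71.6 ± 0.122%). Hadha-205, the coding transcript of 4017 nucleotides, held 20.4% and 18.9%. The second quantifier gave Hadha-201 63.4% and 66.6% and Hadha-205 13.9% and 14.5%. Hadha-205 is longer by 186 nucleotides at the 5' end and 1122 at the 3' end, and in between Hadha-201 lacks 1 stretch of 157 nucleotides, all of them coding in Hadha-205. That stretch is the last 32 nucleotides of exon 18 and the start of exon 19, 125 nucleotides. It is shown on the minus strand, 5' to 3', within mm10 chr5:30120046-30120739, from the GENCODE transcript, with 20 shared bases in lower case on each side and the bases absent from Hadha-201 in capitals.
Hadha-205 stretch: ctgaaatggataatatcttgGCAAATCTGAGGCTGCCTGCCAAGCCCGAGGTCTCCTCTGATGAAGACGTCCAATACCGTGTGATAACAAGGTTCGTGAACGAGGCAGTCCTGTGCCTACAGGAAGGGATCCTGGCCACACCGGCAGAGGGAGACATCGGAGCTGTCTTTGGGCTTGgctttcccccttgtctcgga
The 157 bases are not a multiple of 3. From the start codon that both transcripts share, Hadha-205 reads 763 codons, and Hadha-201 reads 676, of which the first 656 are the same. At the edges of the gap 6 bases are repeated, so the junction can be placed at more than 1 base. No deposited table gives reads over the junction, and how many reads separate the isoforms was not measured here.

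After the trifunctional protein, the free matrix thiolase and the electron acceptor were lower. Acaa2, the 3-ketoacyl-CoA thiolase for medium chains (ENSMUSG00000036880.10, chr18:74779197-74806208, plus strand, 10 exons), had 2418 counts in library 1 and 2181 in library 2, or 66.72 and 65.44 TPM (66.1 ± 0.905). A short coding model of its 3' part, Acaa2-202, held 22.1% and 14.7% of that TPM, and the full transcript Acaa2-201 stood at 51.95 and 55.83 TPM. Hadh and Echs1, the free hydroxyacyl-CoA dehydrogenase and hydratase for short chains, stood at 49.66 and 54.80 TPM and at 57.25 and 56.50 TPM. Both were below the gene TPM of Acaa2 in both libraries. Against the full transcript Acaa2-201 alone, Hadh was lower and Echs1 higher in both libraries.

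Etfdh, the ubiquinone oxidoreductase that takes electrons from ETF (ENSMUSG00000027809.14, chr3:79603788-79629500, minus strand, 13 exons), had 2670 counts in library 1 and 2273 in library 2. Its level was 38.54 and 37.88 TPM (38.2 ± 0.467), the smallest SD of the 10 genes. The ETF subunit genes stood at 96.70 and 103.69 TPM for Etfa and at 106.17 and 126.25 TPM for Etfb. Etfdh was at 0.380 and 0.329 times their mean, or 0.355 over both libraries. In expected counts, where transcript length adds to the value, the ratio was 0.808. In the second quantifier Etfdh stood at 35.9 and 36.7 TPM.

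Ucp3 was the main uncoupling-protein gene of the muscle and, on scaled counts, the one of the 10 that differed most between the libraries. It lies at chr7:100472990-100486432 on the plus strand (ENSMUSG00000032942.14, 7 exons) and had 2801 counts in library 1 and 1920 in library 2, or 40.60 and 32.47 TPM (36.5 ± 5.75). Of the summed TPM of Ucp1, Ucp2 and Ucp3 it held 88.1% in both libraries. Ucp2, the more widely expressed relative whose gene starts 6904 bases beyond the end of Ucp3, stood at 5.47 and 4.39 TPM from 202 and 158 counts, and Ucp1, of brown fat, at 0.02 and 0 TPM. On the unscaled TPM of either quantifier Cpt2 differed more, with log2 ratios of -0.39 and -0.34, against 0.32 and 0.31 for Ucp3. Library 1 was higher for Ucp3 and for Ucp2, and the transcript Ucp3-201 carried most Ucp3 RNA, at 35.63 and 27.72 TPM.

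The 249 bases before the annotated Ucp3 start are shown because Ucp3 was the member furthest apart between libraries on scaled counts. They are on the plus strand at mm10 chr7:100472741-100472989, from RefSeq, with capitals for the hexamer AGGTCA, bound by nuclear receptors, and for the E-box CANNTG, bound by MyoD-type muscle factors.
Ucp3 upstream: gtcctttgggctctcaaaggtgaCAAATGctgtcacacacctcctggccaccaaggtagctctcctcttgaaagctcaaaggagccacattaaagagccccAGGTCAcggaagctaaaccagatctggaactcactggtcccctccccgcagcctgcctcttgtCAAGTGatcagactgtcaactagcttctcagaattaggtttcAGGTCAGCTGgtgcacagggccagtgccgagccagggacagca
AGGTCA occurs 2 times and CANNTG 3 times, and 1 pair overlaps by 2 bases. A match is a description of letters and does not show a bound site.

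**Figure D2:**
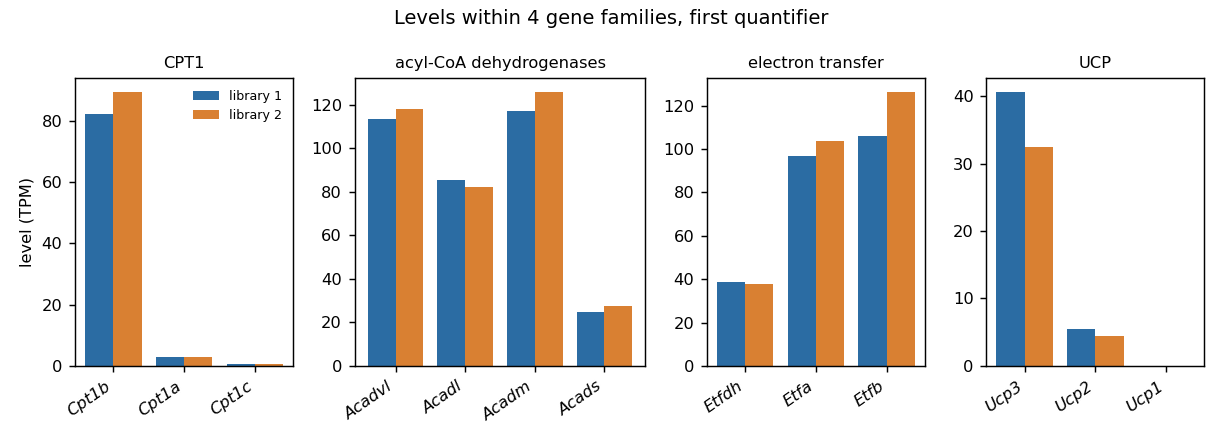
Deposited TPM (bars, y axis, from 0, a separate scale in each panel) in library 1 (blue, left) and library 2 (orange, right) for the CPT1 genes, the chain-length dehydrogenases, the electron transfer genes and the uncoupling proteins. Cpt1b and Ucp3 are several times higher than their relatives, Acads is the lowest dehydrogenase and Etfdh lies below Etfa and Etfb.

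Between the libraries, ratios of the 10 genes ran from 0.997-fold for Hadhb to 1.43-fold for Ucp3. Ratios were taken from rounded counts after TMM scaling, edgeR's trimmed-mean correction for composition, and genes counted as tested at a mean TPM of 5 or more and a summed count of 100 or more, which held for 6685 genes and all 10 members. None of the 10 was past 1.5-fold, against 2.33% of all tested genes in either direction, and none past 2-fold, against 0.509%. At shares this low, having none among 10 genes does not set them apart from other genes. The median log2 ratio of the 10 was 0.11, and that of all tested genes was -0.002. Above 0 were 9 of 10, against 49.3% of all tested genes; this count was 4 on deposited TPM, 3 on the second quantifier's TPM and 7 on its TMM-scaled counts. Deposited TPM itself shifts the median of all genes to -0.172 and the second quantifier's TPM to -0.209, and relative to these 8 of the 10 were above.

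Ucp3 had the highest ratio, 0.51 on the log2 scale (95% counting interval 0.43 to 0.60), or 1.43-fold. Among all tested genes 97.8% had a lower ratio. Acadl followed at 0.23 (0.17 to 0.30) and Etfdh at 0.20 (0.12 to 0.28). Cpt1b stood at 0.11, Acadvl and Acaa2 at 0.12 each. The counting interval lay wholly above 0 for these 6 genes, as it did for 18.0% of all tested genes, and below 0 for none of the 10, against 18.1% of all. For Cpt2, Acadm, Hadha and Hadhb it included 0. These genes stood at 1.01-fold, 1.03-fold, 1.02-fold and 0.997-fold. Without Ucp3 the median of the other 9 genes was still 0.11. With 1 library on each side these ratios compare 2 libraries and have no replicate check.

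**Figure D3:**
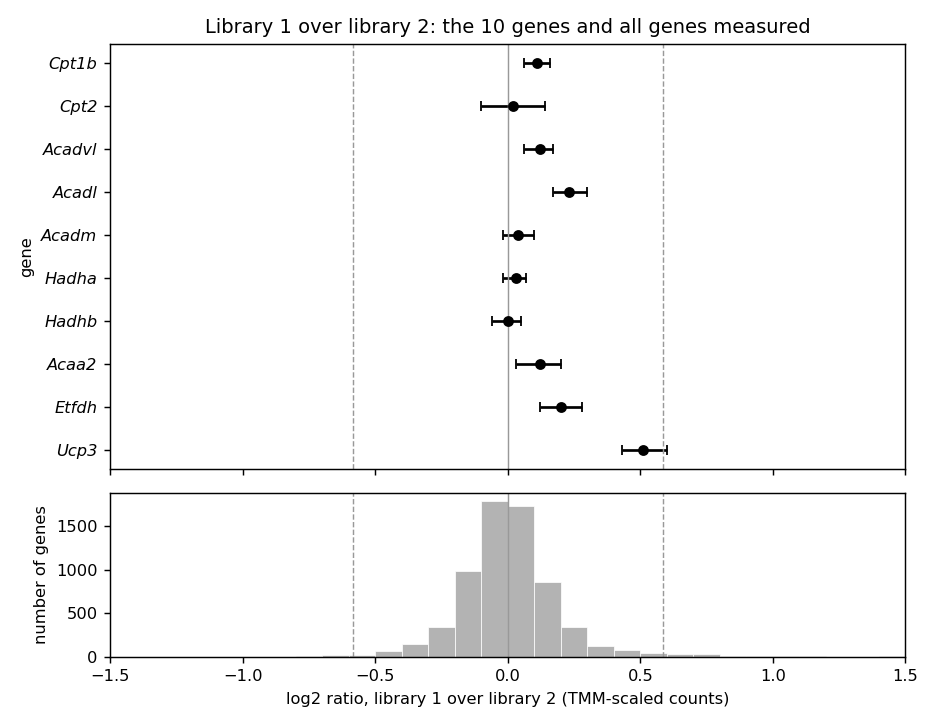
Upper panel, log2 ratio of library 1 over library 2 for each gene (points) with its 95% counting interval (bars); lower panel, the number of genes per bin of 0.1 among all 6685 tested genes, with values beyond 1.5 put in the outermost bins. Dashed lines mark 1.5-fold; all 10 points lie between them and Ucp3, at 0.51, lies furthest to the right.

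Short annotated models shaped the gene TPM of several members. Across the 10 genes, 60 transcripts are annotated. Full-exon transcripts held 83.5% of the summed TPM in library 1 and 83.6% in library 2, but 95.9% of the expected counts in each. TPM divides by length, and the retained-intron models named here are short. The difference was largest for Acadm, where full-exon transcripts held 65.7% and 67.0% of TPM on 90.9% and 90.8% of counts. For Hadhb they held 69.9% and 74.2% of TPM on 91.3% and 92.7% of counts, and for Cpt2 in library 2, 68.8% of TPM on 87.4% of counts. Acadm-207, a retained-intron model of 323 nucleotides, held 19.8% and 15.9% of Acadm TPM on 3.13% and 2.47% of its counts.

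The make-up of the remaining genes ranged from a single transcript to several. Acadl was assigned wholly to its coding transcript Acadl-201 by the first quantifier, but the second gave 17.8% and 20.8% of its TPM to the other model. Etfdh kept 98.4% and 98.9% of its TPM in full-exon transcripts. For Ucp3 the share was 87.8% and 85.4%, with retained-intron models holding 12.2% and 14.6%. In the second quantifier the full-exon share of Cpt1b was 66.8% and 68.8%, against 92.1% and 88.2% in the first, so the make-up of Cpt1b was not settled. Whether reads in retained introns came from unspliced RNA was not tested.

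**Figure D4:**
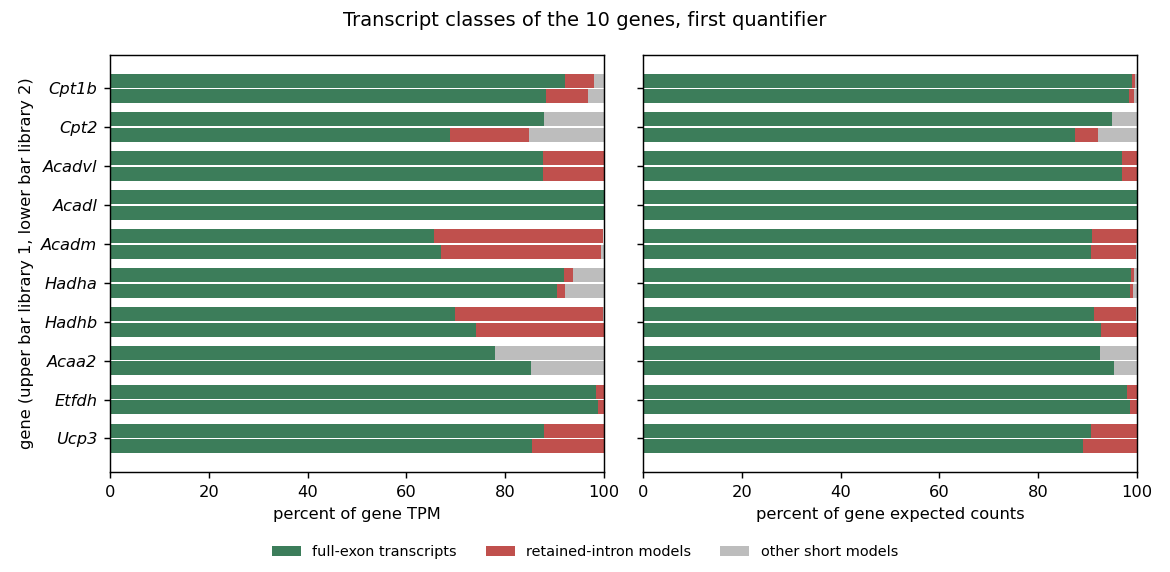
Share of each gene's TPM (left panel) and of its expected counts (right panel), in percent, held by full-exon transcripts (green), retained-intron models (red) and other short models (grey) in library 1 (upper bar) and library 2 (lower bar), first quantifier. Full-exon transcripts hold 65.7% and 67.0% of Acadm TPM but 90.9% and 90.8% of its counts, and Cpt2 is the gene whose bars differ most between libraries.

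Shared sequence limits some of these values. For the 1 principal transcript read per gene, stretches of 31 bases of Cpt2, Acadl, Acaa2, Etfdh and Ucp3 matched no transcript of another gene on either strand. On the opposite strand 4930579G24Rik, at 0.62 and 0.79 TPM, overlaps the Etfdh locus by 422 bases. Of Cpt1b-201, 93.7% of such stretches also occur in Gm44502, an annotated coding gene on the same strand that spans Cpt1b and reaches into Chkb. The first quantifier gave Gm44502 54.5 counts in library 1 and 0 in library 2, and the second 1.71 and 1.52 TPM. Of Hadhb-203, 65.6% occur in processed pseudogenes. Gm13910 on chromosome 2 held 551.87 and 622.25 counts, or 13.67 and 17.82 TPM, so the split of counts between Hadhb and its copies is uncertain. Acadm-201 shares 12.7% with 2 other genes, mostly Gm5131, a pseudogene at 1.32 and 2.19 TPM. Hadha shares 1.13% with Garem2, which had 0 counts in both libraries. Acadvl shares 32.7%, where its 3' end overlaps Dvl2 on the opposite strand by 2119 bases, and Dvl2 stood at 1.86 and 1.37 TPM. The kit keeps strand, but whether the quantifiers used it is not stated in the sources.

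None of the motifs searched around the start sites occurred in every window. RefSeq windows of 300 bases, from 250 before to 50 after the start, were matched for 8 of the 10 genes; those of Cpt1b and Acaa2 were not. The motifs were searched on both strands in these windows and in all 32851 windows of the table. GGGCGG occurred in the windows of Acadl (4), Hadhb (4), Cpt2 (3), Hadha (1) and Etfdh (1), and in 35.7% of all windows. The windows of Hadha and Hadhb overlap and are not separate. AGGTCA occurred in those of Ucp3 (2), Acadm (1) and Acadvl (1), and in 16.3% of all. The longer TNAAGGTCA, the element of oestrogen-related receptors, occurred in none of the 8 and in 1.28% of all.

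CANNTG occurred in the windows of Ucp3, Cpt2, Acadl and Acadm and in 72.3% of all. TATAAA, the TATA box, was in none of the 8 and in 13.6% of all. TGCGCA, a part of the element of the factor NRF1, was found 2 times in Etfdh and 1 time in Acadm, and in 7.76% of all windows, and CCAAT was found in Etfdh and in 37.4% of all. Ucp3 had the fewest CG pairs, 5 in its window, against 34 for Acadl and a median of 7 over all windows. GC content was highest in Acadl, at 70.3%, and lowest in Acadvl, at 50.7%, around a median of 52.7% for all windows.

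The genes that surround the 10 in the pathway were read from 12 lists with 60 entries. Of these, 55 had a mean TPM of 1 or more, and 44 were tested for ratios. None of the 44 was past 1.5-fold, against 2.33% of all tested genes. A ratio above 0 was found for 28 of the 44, against 49.3% of all, and the median was 0.05. Among carnitine and transport genes Crat, the acetylcarnitine enzyme, was highest at 140.88 and 153.73 TPM, above all 10 members within each library. In the second quantifier it stood at 136 and 154 TPM, below Hadhb in both. Acsl1, which activates long-chain fatty acids to acyl-CoA, stood at 100.18 and 99.58 TPM, between Cpt1b and Hadha, and led its list. Among the other acyl-CoA dehydrogenases Acadsb, of branched short chains, was highest at 75.31 and 72.45 TPM.

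Ech1, of unsaturated acyl-CoA, stood at 82.71 and 79.60 TPM. Slc25a4, the adenine nucleotide carrier of muscle, reached 1068.11 and 1159.02 TPM, far above Ucp3 among the inner-membrane carriers listed. Acot13, a thioesterase, stood at 51.06 and 53.15 TPM, and Scp2, which led the peroxisomal list, at 59.20 and 72.86. Oxct1, which activates ketone bodies, stood at 115.91 and 134.87 TPM. Listed genes below TPM 1 on average included Cpt1c, Ucp1, Slc25a14 at 0.74 and 1.07, and Acaa1b at 0.48 and 0.37. Acacb, whose malonyl-CoA restrains CPT1, stood at 68.91 and 70.29 TPM.

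All 10 listed regulators of the pathway had a mean TPM of 1 or more. Esrra, an oestrogen-related receptor and the highest of them, stood at 30.89 and 37.76 TPM. Of the 7 regulators tested, 1 had a ratio above 0, against 49.3% of all tested genes, and the median was -0.09. Among listed genes chosen after their values were seen, Ppargc1b, a coactivator of fat oxidation genes, had 442 and 606 counts, so that its log2 ratio was -0.49 (-0.67 to -0.31). Mlycd, which removes malonyl-CoA, had 2839 and 1943 counts, a ratio of 0.51 (0.43 to 0.60), as large as that of Ucp3. Acot1, a thioesterase, had 54 and 16 counts, a ratio of 1.72 (0.90 to 2.63), at a level too low to be tested. The 3 thioesterases tested ran from 0.07 for Acot9 to 0.31 for Acot2. Beside these, the 1 macrophage marker of 6 that could be tested, Lyz2, had a ratio of 0.30. The median was 0.11 over 4 tested endothelial markers, of which 3 were above 0, and 0.01 over 5 white fat markers. It was -0.14 over 5 fibroblast markers, of which 2 were above 0. Col1a1 and Col3a1 stood at -0.49 each and Lum at -0.14, against Pdgfra at 0.34 and Dcn at 0.09. Over 8 fibre markers the median was -0.03, with 3 above 0. These ran from -0.32 for Myh7 of slow fibres to 0.09 for Myh2. The 1 tested brown fat marker, Ppargc1a, had a ratio of -0.06 and the 1 tested cardiac marker, Myh6, -0.23. Their part in the result was not tested.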

How the data were processed

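The deposited read-me names mm10 and GENCODE M21 as the references of both quantifiers; the programs are not given in the sources used here. Per the file headers, the first quantifier's gene and transcript tables give expected counts, TPM and percent of gene TPM per transcript, and the second's transcript table gives estimated counts and TPM, summed here per gene. TPM as deposited by the authors covers every entry, with spike-ins. Expected counts as deposited were rounded to whole numbers for ratios and scaled by TMM (edgeR 4.0.16, R 4.3.3, 11577 genes). Intervals are exact binomial (Clopper-Pearson, 95%) and, like the 3-count floor, cover counting error only. The libraries differed beyond sampling noise (chi-square 18.6 per degree of freedom). The ratio step was tested on simulated counts. CAST alleles were assigned against mm10; the effect was not tested. Other genes were named as the highest of each list, other carriers of a member's step, or below TPM 1; 1 listed gene is not reported here. Members and lists were chosen with earlier results of these data known. Alternatives were other scalings, the second quantifier, other filters, each library alone and full-exon transcripts, the last chosen after seeing the data.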

Additional observations from a re-analysis of the deposited data

How the results depend on the processing

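With 2 libraries of 1 group, every value has 1 degree of freedom of spread and no test, and intervals cover counting error alone. No paired analysis was possible because there is 1 group. Of 249 alternative values, 160 stayed within the spread or counting interval of the reported value and 89 moved beyond it. These totals do not measure robustness. For a mean of 2 libraries, each library alone always lies within the SD, so that alternative could not move. Rescaling a level to nuclear protein-coding genes changes its unit, and every such value moved. No direction was called, so none could reverse, but signs turned on TPM: Cpt1b and Acadvl were at 0.11 and 0.12 and became -0.12 and -0.06 as deposited. None of the 10 genes passed 1.5-fold under another scaling or quantifier. The summed share of 0.197% was 0.0829% of all gene TPM and 0.165% with full-exon transcripts. The median level of 84.8 TPM was 94.7 by the second quantifier, 203 when rescaled to nuclear protein-coding genes and 78.4 with full-exon transcripts. Hadha over Hadhb, 0.795 as a mean, was 0.726 by the second quantifier, 1.34 in counts and 1.01 in full-exon transcripts, the non-coding Hadha-201 included. Etfdh over the ETF genes, 0.355, was 0.808 in counts. Hadhb-201 held 39.2% of Hadhb TPM, and 0.601% by the second quantifier. The Ucp3 share of 88.1% was 86.9% by the second quantifier and 92.8% in counts, and the Cpt1b share of 96.2% was 95.2% in counts. The median share of the leading transcript, 86.2%, was 76.2% by the second quantifier and 93.4% in counts. The median log2 ratio of 0.114 was 0.178 with spike-in scaling, -0.082 with TPM as deposited by the first quantifier and -0.039 with that of the second, where all genes shift together by -0.172 and -0.209. The count of genes above 0 was then 4 and 3 in place of 9. Each library alone gave a summed share of 0.189% to 0.205%, a median level of 83.9 to 85.7 TPM and a leading share of 85.3% to 87.1%. Except where stated above, the cause of these moves was not tested.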
